A study of Mus musculus with 2 samples.

Results

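The ETS genes encode transcription factors that share one DNA-binding fold, the ETS domain, which contacts DNA at a GGAA core. Members differ in the bases they prefer beside that core, in their partners and in the cells that express them. In the blood-forming liver of the fetus they include PU.1, which directs macrophage and granulocyte fates, FLI1 and ERG, which act in stem cells, megakaryocytes and endothelium, and broadly expressed members such as GABPA and ELK4. The 10 genes described here, Spi1, Spib, Fli1, Erg, Ets1, Ets2, Etv6, Elf1, Gabpa and Elk4, were picked by symbol as rows of the gene tables, by a rule that contains no measured value, although earlier results of these data were known. They are 10 of 26 ETS genes of the mouse and 10 of the 43346 genes annotated in the tables, and all 10 were found.

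Total RNA was measured in whole liver of B6NCrl embryos at day 13.5, from pooled males and females, in 2 libraries of 10 ng RNA each. Both come from healthy embryos with no treatment named, are labelled biological replicates 1 and 2 of separate tissue samples, and refer to the same donor entry. The SD over n = 2 thus gives only the spread of these samples. With 1 group there is no condition to test, and no p-value is given for any value below. Bulk tissue does not tell fewer cells of a type from less RNA per cell.

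Replicate 1 held 39182457 and replicate 2 held 37432977 expected counts on annotated genes. A count of 3, the most that a count of 0 allows, equals 0.0417 and 0.0464 TPM for a transcript of 2000 nt, where TPM is the length-corrected share of a gene among all transcripts. The tissue label was checked on its defining markers: hepatic Afp stood at 5630 and 6807 TPM and erythroid Klf1 at 443 and 419 TPM. Heart markers were detected too, with 4 of 4 higher in replicate 2 as TPM. Their summed level was 36.3 and 87.0 TPM, of which Actc1 made up 23.0 and 53.7 TPM.

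Most of the members were expressed at a moderate level of similar size. Of the 10 genes, 8 reached 1 TPM in both libraries, beside 52.1% of the 21474 protein-coding genes, and the 10 had medians of 8.79 and 11.9 TPM, beside a median of 1.37 and 1.51 TPM over protein-coding genes. Together they summed to 79.6 and 96.9 TPM (88.2 ± 12.2, SD, n = 2), and to a mean of 135 TPM when TPM was rescaled without globins, which moved their mean median level from 10.3 to 15.7 TPM. The order ran from Gabpa through Spi1, Ets1, Elf1, Ets2, Fli1, Elk4, Etv6 and Erg to Spib. Neighbours between Spi1 and Elk4 in that order were not clearly separated, since the ranges of each adjacent pair over the libraries overlapped. Spi1 and Ets1, as well as Fli1 and Elk4, stood in opposite orders in the libraries. Within each library the order from Ets1 through Elf1 and Ets2 to Fli1 was the same. In replicate 2, however, Elf1 exceeded Ets2 by only 0.13 TPM and Ets2 exceeded Fli1 by only 0.02 TPM. Gabpa lay above Spi1, Etv6 below Elk4, Erg below Etv6 and Spib below Erg in both libraries, with ranges that did not overlap.

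**Figure D1:**
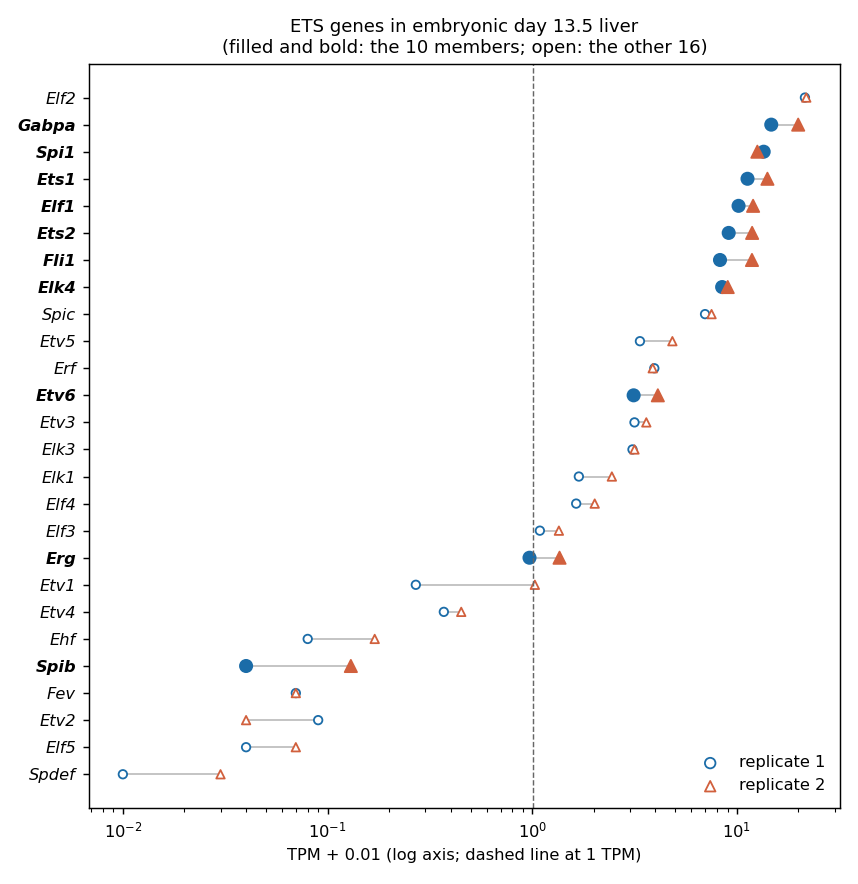
Level of each ETS gene in both libraries, as TPM + 0.01 on a log axis; circles are replicate 1 and triangles replicate 2, filled for the 10 members and open for the other 16 ETS genes. Between Gabpa and Elk4, 7 members lie from 8.26 to 19.9 TPM, Etv6 and Erg lie lower, and Spib is far below 1 TPM.

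PU.1, the product of Spi1 (ENSMUSG00000002111.8, GRCm38 chromosome 2, 91082390 to 91115756, plus strand), drives macrophage and granulocyte development and is opposed by GATA1 in the red cell lineage. Spi1 was measured at 13.5 and 12.6 TPM in replicates 1 and 2, above 74.5% of protein-coding genes. It was the only member among the 9 with enough counts that was lower in replicate 2 as TPM and as TMM-scaled counts, whereas all 9 were lower with spike-in scaling.

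SPIB, its close relative in B and dendritic cells, was near the detection limit. Spib (ENSMUSG00000008193.9, chromosome 7, 44525993 to 44532071, minus strand) had 3 counts in replicate 1 and 11 in replicate 2, or 0.03 and 0.12 TPM. The authors' credibility bounds were 0.0114 to 0.0905 TPM and 0.067 to 0.214 TPM. Per unit length, Spi1 exceeded Spib by a factor of 458 (95% counting interval 156 to 2226) in replicate 1 and 107 (59.2 to 215) in replicate 2. The third gene of this subfamily, Spic, which serves iron-recycling macrophages, stood at 6.98 and 7.51 TPM, so that Spi1 exceeded Spic by 0.94 and 0.74 on the log2 scale. The B lymphoid markers were low as well, with 1 of 5 at 1 TPM in both libraries and a summed level of 5.62 and 5.59 TPM.

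The known partners of PU.1 covered a wide range. Of 5 listed partners and opponents, 4 reached 1 TPM in both libraries. Gata1, its opponent in the red cell lineage, was the highest at 121 and 130 TPM, and Irf4, which binds with PU.1 and SPIB in B cells, was the lowest at 0.02 and 0.05 TPM. Irf8, the corresponding partner in monocytes, stood at 10.5 and 11.3 TPM, near Spi1 itself, whereas Cebpa was at 3.58 and 4.43 TPM and Jun at 5.80 and 5.27 TPM.

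Genes that PU.1 is known to activate were present at low to moderate levels. Of the 6 listed targets, 5 reached 1 TPM in both libraries, and the list median was 3.54 ± 0.134 TPM. Csf1r, the receptor for the macrophage growth factor, was the highest at 14.0 and 15.6 TPM, and Il7r, a lymphoid receptor, the lowest at 0.21 and 0.35 TPM.

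FLI1 and ERG are sister proteins of the ERG subfamily, and the pair was expressed unequally. Fli1 (ENSMUSG00000016087.9, chromosome 9, 32422204 to 32542861, minus strand), a regulator of megakaryocytes, was measured at 8.26 TPM (replicate 1) and 11.8 TPM (replicate 2). Erg (ENSMUSG00000040732.14, chromosome 16, 95359169 to 95586593, minus strand), needed by stem cells and endothelium, stood at 0.96 and 1.35 TPM from 65 and 79 counts, and so reached 1 TPM in only 1 library. Fli1 exceeded Erg 8.58-fold (6.67 to 11.2) in replicate 1 and 8.78-fold (6.99 to 11.2) in replicate 2, and both libraries gave the same ratio within counting error. The third gene of the subfamily, Fev, a factor of serotonergic neurons, had 3 counts in each library.

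The factors that share binding sites with ERG and FLI1 in blood progenitors were all above 1 TPM. Of these 5 genes Lmo2 was the highest at 140 and 149 TPM and Gata2 the lowest at 4.04 and 4.58 TPM. Tal1, Lyl1 and Runx1 stood between them, with Runx1 at 5.20 and 6.05 TPM.

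Targets of FLI1 in megakaryocytes and of ERG in endothelium were also detected throughout. All 6 listed megakaryocyte targets reached 1 TPM in both libraries, from the platelet chemokine gene Pf4 at 493 and 433 TPM to the von Willebrand receptor gene Gp1ba at 2.50 and 4.19 TPM. All 5 listed endothelial targets did so too, from endoglin (Eng) at 18.5 and 20.9 TPM to the cadherin gene Cdh5 at 4.97 and 6.56 TPM. Every one of these 5 exceeded Erg in both libraries on the TPM scale.

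The founding pair, Ets1 and Ets2, lay close together. Ets1 (ENSMUSG00000032035.11, chromosome 9, 32636221 to 32757820, plus strand), best known from lymphocytes and endothelium, stood at 11.3 and 14.1 TPM. Ets2 (ENSMUSG00000022895.10, chromosome 16, 95702075 to 95721051, plus strand), a target of growth factor signalling through the MAP kinases, stood at 9.11 and 11.9 TPM. Ets1 exceeded Ets2 1.24-fold (1.15 to 1.33) in replicate 1 and 1.19-fold (1.11 to 1.27) in replicate 2, so the counting interval lay above 1 in each library.

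Etv6 and Elf1 act broadly in the blood system. Etv6 (ENSMUSG00000030199.12, chromosome 6, 134035700 to 134270158, plus strand), a repressor that maintains stem cells in the marrow, stood at 3.12 and 4.10 TPM. The 3 listed corepressors of ETV6 were more abundant, from Ncor1 at 69.3 and 71.0 TPM to Sin3a at 12.3 and 15.2 TPM. Elf1 (ENSMUSG00000036461.11, chromosome 14, 79481194 to 79582494, plus strand), an activator in lymphoid and other blood cells, stood at 10.2 and 11.99 TPM. Its sister Elf2 was the highest of all 26 ETS genes at 21.5 and 21.8 TPM, and Elf1 held 0.474 (0.442 to 0.508) of the Elf2 level per unit length in replicate 1 and 0.549 (0.513 to 0.588) in replicate 2.

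Gabpa and Elk4 are the members with a general role. GABPA (ENSMUSG00000008976.12, chromosome 16, 84834925 to 84863779, plus strand) binds DNA as the alpha subunit of a complex that activates genes of mitochondria and ribosomes, and Gabpa was the highest member at 14.7 and 19.9 TPM. The beta subunits that give the complex its activation domain were also present, Gabpb1 at 25.4 and 29.4 TPM and Gabpb2 at 6.2 and 6.88 TPM. All 5 listed GABP targets reached 1 TPM in both libraries, from the cytochrome oxidase gene Cox4i1 at 722 and 727 TPM to Tfb1m, a methyltransferase of mitochondrial ribosomes, at 12.4 and 13.5 TPM.

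ELK4 (ENSMUSG00000026436.11, chromosome 1, 132007607 to 132032612, plus strand) binds together with the serum response factor SRF at growth factor-responsive genes. Elk4 stood at 8.46 and 9.01 TPM, above its sisters Elk3 (3.08 and 3.15 TPM) and Elk1 (1.68 and 2.44 TPM) as gene totals. Of the Elk4 total, 4.04 and 4.45 TPM fell on Elk4-207, which is not annotated as protein-coding. The full-length coding forms Elk4-201 (1.36 and 1.46 TPM) and Elk4-202 (1.23 and 1.53 TPM) encode the same 1290 nt. A further protein-coding form, Elk4-206, stood at 0.26 and 0.52 TPM. Forms of Elk3 and Elk1 were not separated, so Elk4, Elk3 and Elk1 were not ordered by coding RNA. The place of Elk4 in the order of members likewise rests on its gene total. Srf itself was at 1.44 and 1.51 TPM, and the alternative SRF cofactors Mrtfa and Mrtfb were at 3.57 and 4.38 TPM and at 2.85 and 3.30 TPM. Of the 5 listed targets of SRF and its ETS partners, 4 reached 1 TPM in both libraries, led by Mcl1, a survival gene, at 28.1 and 29.3 TPM, and Fosb was lowest at 0.01 and 0.02 TPM.

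The 16 remaining ETS genes were lower as a group, with a median of 1.52 ± 0.226 TPM. Of them, 9 stood at 1 TPM or more in both libraries, near the share of 52.1% over protein-coding genes. The 9 were Elf2, Spic, Etv5, Erf, Etv3, Elk3, Elk1, Elf4 and Elf3. Of the remaining 7, Etv1, Etv4 and Ehf lay above the lowest member, Spib, in mean level, and Fev, Etv2, Elf5 and Spdef lay below it. Over all 26 genes the members held 63.8% ± 1.52 of the ETS TPM. The ELF subfamily of Elf1, Elf2 and Elf4 held the largest share with 25.1% ± 1.59, followed by Ets1 with Ets2 (16.7% ± 0.941), the SPI subfamily (14.9% ± 1.86), Gabpa (12.5% ± 1.24), the ELK subfamily (10.1% ± 0.451) and the ERG subfamily (8.10% ± 1.11). The range of the SPI share, 16.2% and 13.5%, overlapped with that of its neighbours Ets1 with Ets2 (16.1% and 17.4%) and Gabpa (11.6% and 13.3%) in the first case and did not in the second.

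The transcript tables list 47 transcripts of the members, of which 39 have an entry in the later GENCODE release used for names and biotypes. The share of a transcript in the TPM of its gene is an estimate, because overlapping isoforms divide reads by a model. The transcript with the highest share was the same in both libraries for 7 members, and for 4 members its mean share exceeded 80%. Fli1, Ets2 and Ets1 were close to a single form. Fli1-201 held 99.2% and 99.4%, Ets2-201 97.8% and 98.0% and Ets1-201 96.6% and 96.5% in replicates 1 and 2. Ets1-202, whose coding sequence is 1059 nt against 1320 nt in Ets1-201, held 1.07% and 1.92%.

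**Figure D2:**
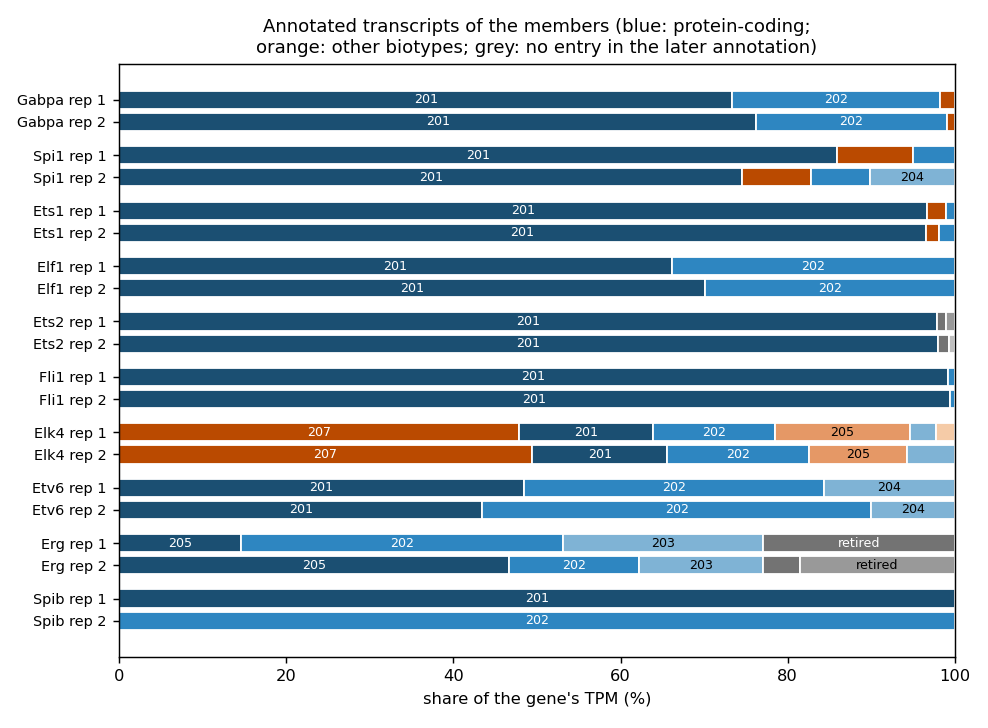
Share of each annotated transcript in the TPM of its gene (percent), 1 bar per member and library; blue is protein-coding, orange another biotype and grey a transcript without an entry in the later annotation, and numbers are transcript suffixes ("retired" marks a grey one). Fli1, Ets1 and Ets2 show 1 dominant bar, Gabpa and Elf1 divide between forms of the same coding sequence, and the leading form of Elk4 (207) is not annotated as protein-coding.

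Spi1 was made mainly of Spi1-201, which encodes the full protein in 816 nt and held 85.9% and 74.6%. A further 9.11% and 8.19% fell on Spi1-202, a non-coding processed transcript that starts 13688 nt upstream of Spi1-201, with 24 and 18 counts. Spi1-204, which starts 13706 nt upstream and carries a partial coding sequence of 430 nt, held 0% and 10.2%, from 0 and 19.3 counts. The mouse gene is known to have a distant enhancer before its promoter, the upstream regulatory element. Over expected counts, which weigh long transcripts more, Spi1-201 held 94.7%.

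Gabpa and Elf1 each divided between 2 transcripts that differ outside the coding sequence. Gabpa-201 held 73.4% and 76.2% and Gabpa-202 24.9% and 22.8%; both encode the same 1362 nt, and Gabpa-202 starts 199 nt upstream and is the shorter one, with 2202 nt against 4987 nt. Elf1-201 held 66.1% and 70.1% and Elf1-202 33.9% and 29.9%, and both encode the same 1836 nt from starts that lie 34480 nt apart. The Elf1 shares are thus those of forms with different first exons. In both genes an exon overlaps a gene on the opposite strand, Atp5j for Gabpa (10239 and 9237 counts) and Wbp4 for Elf1 (1221 and 1297 counts). No source used here gives the strand setting of the counting, so reads of the shared stretch cannot be told apart.

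Etv6, by contrast, divided between forms of different coding length. Etv6-201, with 1455 coding nt, held 48.4% and 43.4%, and Etv6-202, with 1188 coding nt and the same start site, held 35.9% and 46.6%, so the order of the forms differed between the libraries. Counts of Etv6-202 were 237 and 365, a log2 ratio of 0.62 (95% counting interval 0.39 to 0.87) for replicate 2 over replicate 1 after TMM scaling, whereas those of Etv6-201 were 312 and 330 (0.09, −0.14 to 0.31).

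Elk4 stood apart in that its leading transcript is not annotated to give a stable protein product. Elk4-207, annotated as a target of nonsense-mediated decay, held 47.8% and 49.4% and starts 10201 nt downstream of Elk4-202. The full-length forms Elk4-201 and Elk4-202, which encode the same 1290 nt, held 16.1% and 16.2% and 14.6% and 17.0%. In all, transcripts of Elk4 with a biotype other than protein-coding held 63.7% ± 3.70 of its TPM, beside 1.36% ± 0.575 for Gabpa, 8.65% ± 0.653 for Spi1 and 1.94% ± 0.529 for Ets1. Of the Elk4 value, a mean of 13.9% came from the short Elk4-205, with 305 nt and only 10.7 and 7.35 counts. Over expected counts Elk4-205 held 1.45%, Elk4-207 49.0% and Elk4-202 34.2%. Exons of Elk4 overlap those of Mfsd4a on the opposite strand, which had 186 and 228 counts, beside 307 and 304 for Elk4-207. Without the strand setting, reads of this stretch cannot be told apart either, and their part in the share of Elk4-207 was not tested. The shares of Erg and Spib rest on few reads. The leading form was Erg-202 (38.5%) in replicate 1 and Erg-205 (46.7%) in replicate 2, at 17.8 and 24.0 counts, and all counts of Spib were given to Spib-201 in replicate 1 and to Spib-202 in replicate 2.

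Sequences before the start sites are shown for members whose transcripts could be tied to a start. RefSeq promoter windows on GRCm38.p6, from 250 bases before a start to 50 after it, were matched by symbol for 7 members, with 12 windows in all, and not for Spi1, Fli1 and Ets1. GGAA was searched on both strands (as TTCC on the strand shown), together with CCGGAA, the longer form preferred by GABPA and the ELK proteins, and GAGGAA, the form preferred by PU.1. Both longer forms contain GGAA, so their matches are also counted there. GGAA occurred in all 12 windows, as it does in 96.0% of the 32851 windows of the table, with a median of 2 matches for the members and 3 for all windows. CCGGAA was found in 2 of the 12 windows and in 14.9% of all windows, and GAGGAA in 2 of the 12 and in 28.3% of all. A match is only a match of letters, and these shares give no difference to report for the members.

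Both genes with a CCGGAA match also had GAGGAA, and the matches are printed as 30-base pieces in capitals because they place the cores of 2 generally expressed members relative to the start. The Gabpa window belongs to Gabpa-201, with 74.8% of the TPM of the gene. Its CCGGAA, read on the opposite strand, ends 87 bases before the start, and its GAGGAA ends 108 bases before it. Gabpa-202 starts further upstream, at 84834925, so both matches lie downstream of the start of Gabpa-202.
Gabpa CCGGAA, opposite strand, chr16:84835020-84835049, plus strand shown: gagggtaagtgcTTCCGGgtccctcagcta
Gabpa GAGGAA, chr16:84834999-84835028, plus strand: gccaaacaggagGAGGAAgtggagggtaag
Elk4 CCGGAA, chr1:132007540-132007569, plus strand: ccggcccctcccCCGGAAgtgacgctcgcg
Elk4 GAGGAA, chr1:132007416-132007445, plus strand: ctttgggcctgcGAGGAAgtacgaatgtcc
Elk4 GAGGAA, chr1:132007571-132007600, plus strand: tgcttcggcgtcGAGGAAgggccccggcag
The Elk4 window belongs to Elk4-202, with 15.8% of the TPM of the gene, and the CCGGAA there ends 63 bases before the start.

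The 30 bases before each Elf1 start, the first used by Elf1-201 and the second by Elf1-202, are shown because the sequences upstream of these starts differ in composition. The 250 bases before the starts hold 71.6% G or C for Elf1-201 and 43.2% for Elf1-202, with 2 GGAA matches in the former and 0 in the latter; none falls within the pieces shown.
Elf1-201, chr14:79481164-79481193, plus strand: tcacccagaagggacgaaagcgcgacggga
Elf1-202, chr14:79515644-79515673, plus strand: tcatgtgtgactcataagctgagcagactt

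The 250 bases before the start of Etv6-201 and Etv6-202, which together held 84.3% and 90.0% of Etv6, and before the start of Spib are given to set an expressed member beside one near the detection limit. Capitals mark GGAA on either strand, with 3 matches for Etv6 and 1 for Spib, and the G or C content is 60.4% and 58.0%.
Etv6, chr6:134035450-134035699, plus strand: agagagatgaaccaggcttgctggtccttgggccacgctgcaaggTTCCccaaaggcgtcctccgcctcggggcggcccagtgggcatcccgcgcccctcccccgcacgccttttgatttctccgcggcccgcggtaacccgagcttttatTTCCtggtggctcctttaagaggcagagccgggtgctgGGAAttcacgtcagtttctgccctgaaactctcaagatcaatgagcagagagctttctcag
Spib, chr7:44532072-44532321, minus strand: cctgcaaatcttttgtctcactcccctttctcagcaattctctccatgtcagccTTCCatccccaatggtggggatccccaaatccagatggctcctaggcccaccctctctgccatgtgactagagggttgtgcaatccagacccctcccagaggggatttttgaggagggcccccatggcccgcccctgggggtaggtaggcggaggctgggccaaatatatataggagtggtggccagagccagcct

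The only comparison between samples is that of the replicates. It was made on counts, as the log2 ratio of replicate 2 over replicate 1 after TMM scaling, for the 9 members with a mean count of at least 10, that is all but Spib. None of the 9 was more than 1.5-fold apart, beside 8.11% of the 15997 genes measured in this way (3.43% higher and 4.68% lower in replicate 2). Past a log2 ratio of 0.32 in either direction lay 3 members (Spi1, Fli1 and Etv6), beside 21% of all genes. With 1 library on each side the intervals given cover counting error only.

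**Figure D3:**
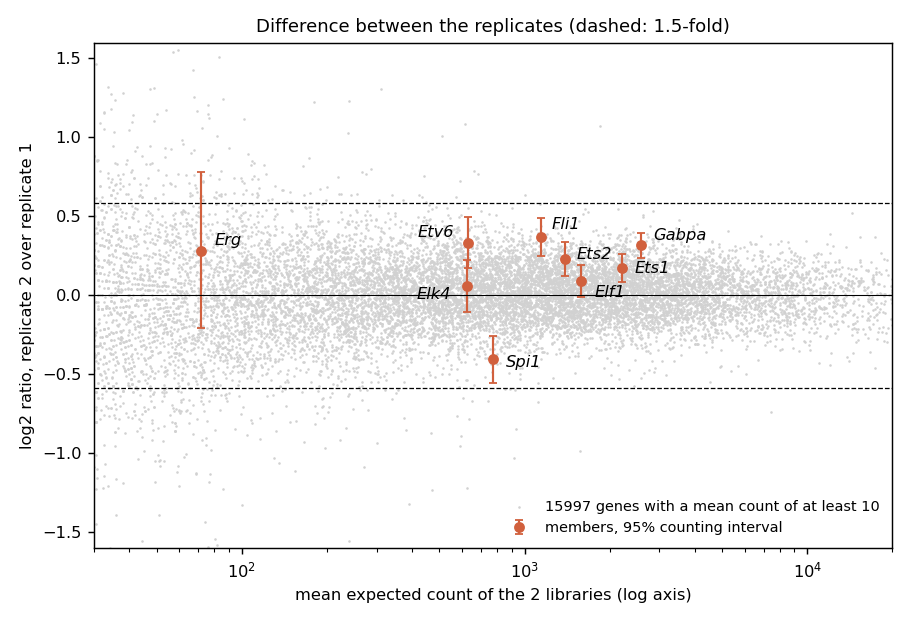
Log2 ratio of replicate 2 over replicate 1 after TMM scaling against the mean expected count (log axis) for 15997 genes in grey and 9 members in orange with 95% counting intervals; dashed lines mark 1.5-fold, and genes beyond the axes are not drawn. All 9 members lie within the dashed lines, 8 above 0 and Spi1 at −0.40; with scaling by spike-ins all 9 lie below 0.

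Of the 9 members, 8 were higher in replicate 2, beside 51.4% of all genes, with a median log2 ratio of 0.23; when libraries were scaled by spike-ins instead, which shifts the median of all genes to −0.64, none was higher, and 8 still lay above that median. Fli1 was highest with 1000 and 1290 counts, a log2 ratio of 0.37 (0.25 to 0.49). Etv6 followed with 559 and 702 counts (0.33, 0.17 to 0.50) and Gabpa with 2296 and 2853 counts (0.32, 0.24 to 0.40). Ets2 stood at 0.23 (0.12 to 0.34) and Ets1 at 0.17 (0.09 to 0.26), and the intervals of Erg (−0.21 to 0.78), Elf1 (−0.01 to 0.19) and Elk4 (−0.10 to 0.22) included 0. Genes with a count like that of Fli1 had a median absolute log2 ratio of 0.12.

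Transcript length moved with these ratios. Genes in the same twentieth of transcript length had median log2 ratios of 0.11 for Gabpa, 0.10 for Ets1, Elf1, Ets2 and Etv6, 0.08 for Fli1, 0.00 for Elk4, −0.01 for Erg and −0.03 for Spi1. With these medians subtracted, an alternative chosen after the data were seen, the median of the members was 0.13 and 7 of 9 were higher in replicate 2. The part of length in the ratios was not tested further.

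Spi1 was the exception, with 882 counts in replicate 1 and 664 in replicate 2. Its log2 ratio was −0.40 (−0.55 to −0.26), or 1.32-fold higher in replicate 1, and genes of like count had a median absolute log2 ratio of 0.13. Most of its counts were those of Spi1-201, with 850 and 618 (−0.46, −0.61 to −0.30). On the TPM scale the log2 ratio was −0.10, where the median of all genes was 0.14, and the mean length of its transcripts in the tables was 1823 nt in replicate 1 and 1651 nt in replicate 2. Its relative Spic had 348 and 367 counts (0.08, −0.13 to 0.30, an interval that includes 0).

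Cell type markers also differed between the libraries. Beside Spi1, 5 of 6 granulocyte and monocyte markers were lower in replicate 2, with summed levels of 1046 and 980 TPM, and 4 of 6 macrophage markers were lower, with summed levels of 178 and 192 TPM. Beside Fli1 and Erg, all 5 endothelial markers were higher in replicate 2, with summed levels of 54.1 and 69.0 TPM, all 5 stem and progenitor markers were higher (38.3 and 48.6 TPM), and all 5 megakaryocyte markers were lower (784 and 723 TPM). The widest differences were those of the heart markers, with 4 of 4 higher in replicate 2 and a median log2 ratio of 1.53, and of the B lymphoid markers, with 4 of 5 lower and a median of −0.56. No marker of these 7 lists was at 0. These directions hold under TMM scaling. With spike-in scaling, where the median of all genes is −0.64, the endothelial and stem cell markers are lower in replicate 2 too. The heart marker Myl7 is then lower as well. The marker lists share Csf1r, Cdh5, Pf4, Itga2b and Gp9 with the target lists. On the TPM scale the megakaryocyte marker Ppbp was higher in replicate 2, at 187 and 198 TPM. Of the 6 megakaryocyte targets of FLI1, 4 were lower in replicate 2 under TMM scaling and 2 were higher. The higher ones were Gp1ba at 0.57 (0.33 to 0.81) and Gp6 at 0.05 (−0.27 to 0.36). Of the 5 endothelial targets of ERG, 2 were higher in replicate 2 under TMM scaling, Cdh5 at 0.25 and Eng at 0.03. The other 3 were lower, Cldn5 at −0.24 (−0.46 to −0.02), Icam2 at −0.13 (−0.29 to 0.04) and Vwf at −0.11 (−0.22 to −0.003). Transcript length was not taken out of these marker and target ratios. Ppbp (−0.07), C1qb (−0.08) and Cd68 (−0.07) lay above the medians of genes in the same twentieth of length (−0.10, −0.10 and −0.12). Their direction thus reverses when these medians are subtracted. The other megakaryocyte markers, with C1qa and Csf1r, lay below theirs. All 5 endothelial and all 5 stem and progenitor markers lay above theirs. The part of cell composition in the ratios of the members was not tested.

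**Figure D4:**
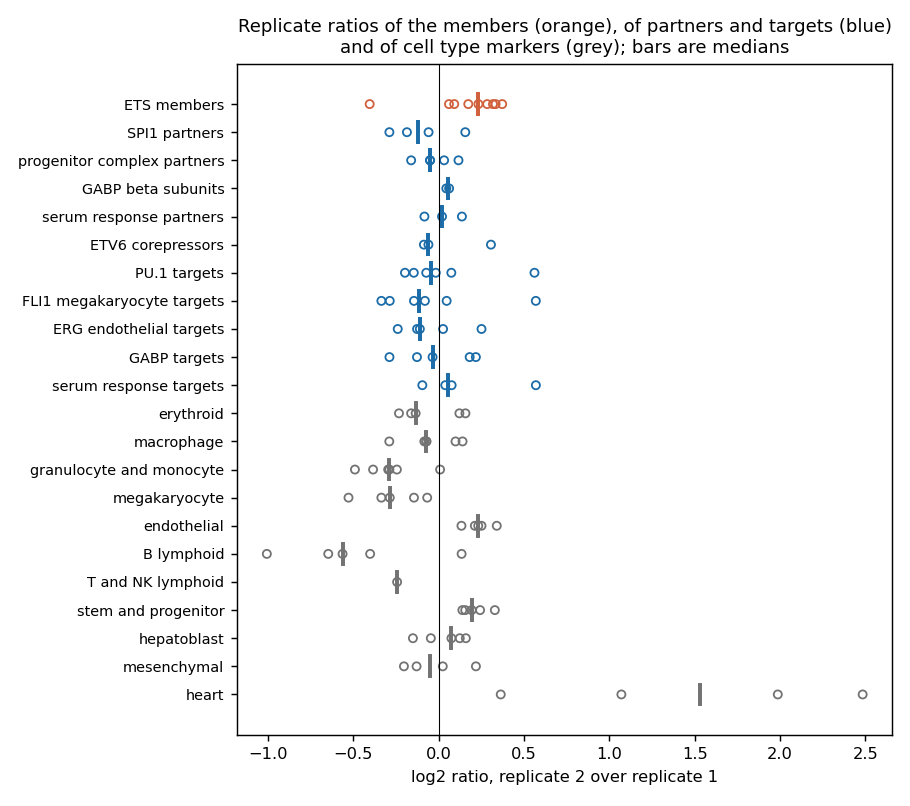
Log2 ratio of replicate 2 over replicate 1 after TMM scaling for each gene (circles) of the members, the partner and target lists and the cell type marker lists, with vertical bars at list medians. The members have a median of 0.23, the endothelial markers 0.23, the stem and progenitor markers 0.19, the granulocyte and monocyte markers −0.29, the B lymphoid markers −0.56 and the heart markers 1.53; scaling by spike-ins moves every ratio down by the same amount, so that of these 6 medians only that of the heart markers lies above 0.

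The partner and target lists had median log2 ratios between −0.12 and 0.06 under TMM scaling, and all medians lay below 0 with spike-in scaling. The medians were −0.12 for the partners of PU.1 and −0.05 for its targets, −0.05 for the progenitor complex, −0.11 for the megakaryocyte targets of FLI1, −0.11 for the endothelial targets of ERG, 0.05 for the GABP beta subunits, −0.04 for the targets of GABP, −0.06 for the corepressors of ETV6, 0.02 for the SRF group and 0.06 for its targets. Of the 45 partner and target genes, 42 reached 1 TPM in both libraries, beside 52.1% of the 21474 protein-coding genes, and Irf4, Il7r and Fosb did not. These lists were chosen by known role, with earlier results of these data known. Egr1, an SRF target that responds within minutes to stimulation, had the highest ratio of its list at 0.57, with 3.16 and 5.33 TPM.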

How the data were processed

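Total RNA-seq tables of genes and transcripts were used for 2 libraries of 1 group (E13.5 liver), read against mm10 and GENCODE M4 per the deposited readme. Expected counts, estimates in which reads that match several genes are divided, were made by the authors per the file headers. The authors' TPM values cover spike-in and transfer RNA entries as well as genes. The percent of a gene's TPM in each transcript was deposited and was recomputed here. Posterior SD and credibility bounds are the authors'; not given in the sources used here: the level of these bounds, aligner, quantification tool and strand setting.

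Symbols and coordinates came from GENCODE M21 (GRCm38) by gene ID, matched for 42462 of 43346 genes. Mrtfa and Mrtfb were listed by older symbols. The 97 spike-in entries held 1.16% and 1.88% of counts and, with 26248 transfer RNA entries, stayed out of gene totals. The counts of the libraries differed by more than sampling noise (chi-square per degree of freedom 21.2 over 17523 genes), so they are not one library deposited again; this does not show whether they are separate samples, which rests on the labels.

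Levels are mean ± SD over n = 2. Ratios between libraries used expected counts plus 0.5, rounded for TMM factors of edgeR 4.0.16, with a minimum mean count of 10 per gene; within-library ratios used counts per effective length, and log2 ratios of TPM used a pseudocount of 0.1. Intervals are exact (Clopper-Pearson) at 95%, cover counting error only, and widen as counts fall. DESeq2 1.42.0 size factors were an alternative. Like count means within 1.5-fold. On simulated data for this comparison (15990 genes) log2 changes of 0.58 and 1 in 50 genes each were recovered as medians of 0.60 and 0.95. Of these genes 56% and 90% passed the 1.5-fold threshold, as did 6.04% of unchanged genes. The changes were upward only and given to genes with higher counts than Erg. The simulated spread between libraries was a set value, not one measured in these data. Software was Python 3.11.15 with scipy 1.17.1, pandas 2.3.3, numpy 2.4.6 and matplotlib 3.10.9, and R 4.3.3.

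The members, lists, markers and tests were chosen with earlier results of these data known. Named were all members, other ETS genes at 1 TPM or above the lowest member, and the highest, lowest and partner genes of each list; genes named beyond that were chosen after their values were seen. With 2 libraries of 1 group, likeness of patterns across samples could not be measured.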

Additional observations from a re-analysis of the deposited data

How the results depend on the processing

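For the scaling, rescaling TPM without globins gave a summed level of 135 TPM and a median member level of 15.7 TPM, since globins then leave the total. Scaling by spike-ins reversed the median ratio between replicates to −0.41 and the ratios of Gabpa (−0.32), Ets1 (−0.47), Ets2 (−0.41), Fli1 (−0.27) and Etv6 (−0.31); 0 members were then higher in replicate 2 and 1 member (Spi1, −1.05) was more than 1.5-fold apart, beside 60.2% of all genes. Without the count filter 1 of 10 members, Spib, was past 1.5-fold, beside 15.3% of all 43346 genes. With the filter kept, 3 of 9 were past a log2 ratio of 0.32. With pseudocounts of 1 and 0.01 the log2 ratio of Spi1 over Spib was 3.71 and 7.50 against 6.28, and that of Fli1 over Erg 2.35 and 3.11 against 3.01. Over counts without length correction the ratios were 6.92, 3.98 and, for Ets1 over Ets2, 0.66 against 0.27. On the TPM scale the median of all genes moved to 0.14. Posterior mean TPM put Erg above 1 TPM in both libraries (9 members). Leaving out either replicate left the summed level between 79.6 and 96.9 TPM and 8 to 9 members at 1 TPM; with n = 2 this range is that of the libraries themselves and shows nothing of stability. No paired analysis was possible because there is only 1 group. Depth limits Spib and the isoforms of Erg, which rest on at most 79 counts per library.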

Other observations

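Among the 12 of 16 ETS genes outside the members with a mean count of at least 10, Etv1, a factor of heart, muscle and neurons, had the highest log2 ratio between the replicates. It had 36.3 and 98.0 counts, or 0.26 and 1.02 TPM, a log2 ratio of 1.42 (95% counting interval 0.88 to 2.04) after TMM scaling, and was chosen after its values were seen. Its relatives Etv5, at 0.37 (0.20 to 0.54), and Etv4, at 0.14 (−0.61 to 0.89), lie below 0 with spike-in scaling, which puts the median of all genes at −0.64. Under TMM scaling the 4 heart markers had log2 ratios of 0.36 to 2.48 in the same direction. Tnnt2 stood at 3.82 and 17.2 TPM and Actc1 at 23.0 and 53.7 TPM. With spike-in scaling Myl7, the lowest of these ratios, lies below 0, whereas Actc1, Tnnt2 and Myh7 stay above 0. The part of heart RNA in the Etv1 value was not tested.

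Several ETS genes that mark epithelia were measured near the detection limit in this tissue. Ehf had 9 and 16 counts, Elf5 3 and 1, and Spdef 0 and 1, whereas Elf3, also epithelial, reached 1.08 and 1.34 TPM. Etv2, which is needed briefly for the first endothelial and blood cells of the embryo, had 3 and 1 counts.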
